A study of Mus musculus with 8 samples.

Results

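The nuclear subunits of respiratory complexes II to V are the chromosomal genes for succinate dehydrogenase (complex II), the cytochrome bc1 complex (complex III), cytochrome c oxidase (complex IV) and ATP synthase (complex V). They were taken from a table of gene counts in liver by symbol, as protein-coding genes named *Sdha* to *Sdhd*, Uqcr, *Cyc1*, Cox4 to Cox8 followed by a letter, or Atp5. Of 48 such genes, 43 had at least 80 counts summed over the 8 livers and are described here: 4 of complex II, 9 of complex III, 13 of complex IV and 17 of complex V. They are 43 of 46078 genes in the table, and all 43 were among the 13856 genes expressed highly enough to be tested. The symbols do not cover every known subunit of these complexes.

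RNA-seq was made from the livers of 4 LWT and 4 LΔRbfox2 mice, 1 library per liver, to ask what loss of the splicing factor RBFOX2 from hepatocytes does to the liver transcriptome. All 8 mice were males homozygous for a loxP-flanked *Rbfox2* allele. LΔRbfox2 mice, labelled *Rbfox2* knockout, also carried Cre recombinase driven by the Albumin promoter, which is active in hepatocytes, while LWT mice, labelled wild-type, lacked Cre, so that their floxed alleles stayed unrecombined. Other cells of the liver, such as endothelial and Kupffer cells, keep *Rbfox2* in this model. Mice began a control (chow) diet as young adults, for 12 weeks by the sample labels although the study's methods give a longer period, and were fasted for 16 h before the livers were frozen. Livers were not pooled, but nothing in the labels describes litters or preparation days, so the P values below measure the spread between these 8 livers.

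Oxidative phosphorylation passes electrons from nutrients to oxygen along membrane complexes and stores the energy as a proton gradient, which ATP synthase uses to make ATP. Complex II oxidizes succinate within the tricarboxylic acid cycle, complex III passes electrons from ubiquinol to cytochrome c, and complex IV passes them from cytochrome c to oxygen. Complex II is encoded in the nucleus alone, whereas complexes III, IV and V combine nuclear subunits with subunits made from mitochondrial DNA, so that their assembly draws on both genomes. Hepatocytes are rich in mitochondria, and in fasting they rely on respiration to supply ATP for gluconeogenesis. Nuclear genes for these subunits often share binding motifs for NRF1, for ETS factors such as GABPA, for YY1 and for ERRα in their promoters.

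Total counts per liver ranged from 37482458 to 56177588, so that 3 counts corresponded to 0.0468 to 0.0929 CPM (counts scaled to a library of 1 standard size), a floor that covers counting error only. CPM values below use library sizes adjusted by TMM factors, which ranged from 0.724 to 1.14 and were lowest in LΔRbfox2 livers 3 (0.724) and 4 (0.776). In those livers major urinary protein genes took 43.6% and 37.5% of counts, against 21.4% to 37.1% in the other 6. The 37.1% was in LWT liver 1, whose TMM factor was 1.02. *Rbfox2* was counted at 17.1, 10.4, 11.4 and 18.3 CPM in LWT livers 1 to 4 and at 4.61, 6.09, 2.24 and 3.19 CPM in LΔRbfox2 livers 1 to 4. The genotypes did not overlap for *Rbfox2*, whose log2 fold change was -1.82 (SE 0.32), although its adjusted P was 0.504 in the edgeR quasi-likelihood test. Hepatocyte markers (6 of 6 measured) summed to 42340 to 62181 CPM in LWT and 47337 to 67588 CPM in LΔRbfox2 livers, and striated muscle markers, of which 2 of 6 were at 0 counts in every liver, summed to at most 0.0461 CPM.

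Across the 43 subunits, mRNA levels had higher means in LΔRbfox2 than in LWT livers for 40, with a median log2 fold change of 0.72, or 1.64-fold, against -0.02 over all genes tested. None passed the test: 0 members and 0 of 13856 genes (0%) reached the threshold of 0.05 on adjusted P in edgeR, and adjusted P among members ranged from 0.504 to 0.949. At an unadjusted P under 0.05, 23 members were higher and 0 were lower in LΔRbfox2 livers, where 7.95% of all genes tested were higher and 1.83% were lower. That balance over all genes turned with library totals without TMM factors: 203 were higher and 393 lower, against 1102 and 254 with TMM factors. DESeq2 called 10 genes and no member, with 25 members and 1206 of all 13856 genes higher at an unadjusted P under 0.05. Limma-voom called 0 genes, with 17 members and 759 of all genes higher. With a correction for the length of each gene's main transcript, 4 members were higher and their median was 0.22. With library totals 3 were higher, with a median of 0.42. With a replicate block 0 were higher (median 0.69). With 1 surrogate variable, a hidden factor estimated from the counts, 0 were higher (median 0.16). For all 43 members the values of the genotypes overlapped, whereas they did not overlap for 2.28% of all genes tested. In whole liver, a difference in the share of a cell type and a difference in RNA per cell cannot be told apart.

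**Figure D1:**
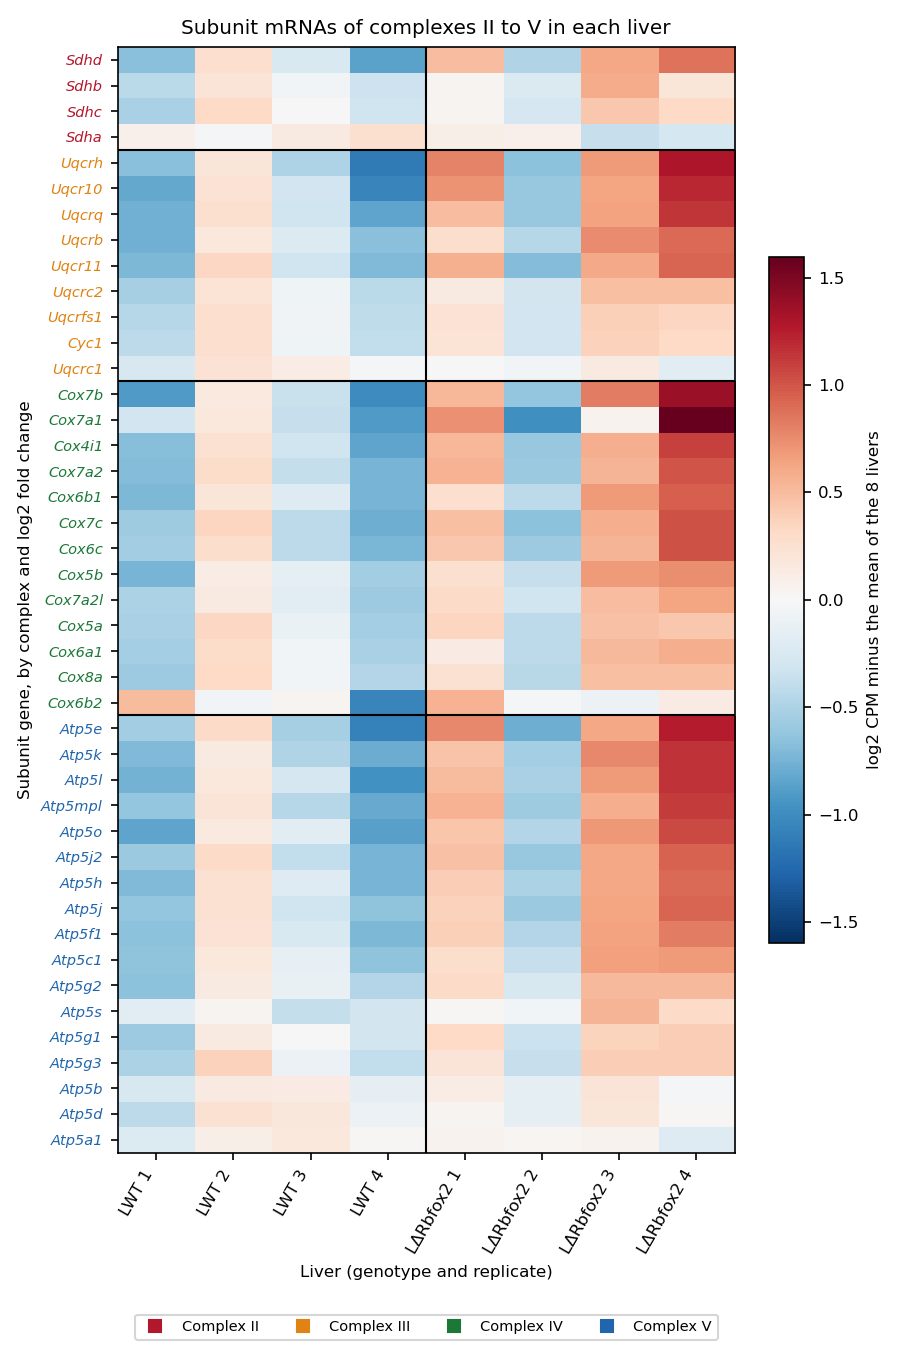
Heat map of log2 TMM-adjusted CPM minus the mean of the 8 livers for the 43 subunit genes (rows, by complex and ordered by log2 fold change) in each liver (columns). LΔRbfox2 livers 1, 3 and 4 and LWT liver 2 are mostly red (higher), LΔRbfox2 liver 2 and LWT livers 1 and 4 mostly blue (lower), and *Sdha* runs the other way in several livers.

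Livers of one genotype also differed from each other, in much the same order for most subunits. The SD between livers of a genotype was 0.43 for the mean log2 CPM of the members. This order was not particular to the subunits. For other genes with short transcripts, the median log2 deviation from the mean liver was -0.44, 0.14, -0.27 and -0.43 in LWT livers 1 to 4. In LΔRbfox2 livers 1 to 4 it was 0.27, -0.36, 0.46 and 0.67. Means for the members were -0.54, 0.21, -0.19 and -0.60 in LWT and 0.35, -0.42, 0.49 and 0.69 in LΔRbfox2 livers. The first principal component, with 54.1% of the variance, was also lowest in LWT livers 1 and 4 and LΔRbfox2 liver 2. Counts of the 43 members together made up 0.468%, 0.834%, 0.664% and 0.530% of all counts in LWT livers 1 to 4 and 0.896%, 0.582%, 0.650% and 0.789% in LΔRbfox2 livers 1 to 4. As TMM-adjusted sums these were 4587, 7527, 6013 and 4713 CPM in LWT and 8091, 5107, 8983 and 10170 CPM in LΔRbfox2 livers. On the TMM-adjusted scale LΔRbfox2 livers 1, 3 and 4 had the highest sums, and LΔRbfox2 liver 2 lay among the LWT livers, below LWT livers 2 and 3. On that scale LΔRbfox2 livers 1, 3 and 4 were each above all 4 LWT livers for 27 members, but with library totals without TMM factors this was so for 2 members. LΔRbfox2 liver 2 was the lowest of its genotype for 39 members and LWT liver 2 the highest of its genotype for 40, and for 41 members LΔRbfox2 liver 2 was below LWT liver 2. The highest of the 8 values was in LΔRbfox2 liver 4 for 29 members, and the lowest was in LWT liver 4 for 22 and in LWT liver 1 for 18. With library totals LΔRbfox2 liver 1 was the highest for 15 members, LΔRbfox2 liver 4 for 14, LWT liver 2 for 12 and LΔRbfox2 liver 3 for 0, whereas LΔRbfox2 liver 2 was the lowest of its genotype for 35 and below LWT liver 2 for 41. The order of livers given below for single genes is that of the TMM-adjusted values, and ratios of 2 genes do not depend on the scaling. Apart from *Atp5b* to *Atp5a1*, each ratio sets a member of high fold change over a member of lower fold change. A higher mean ratio in LΔRbfox2 livers thus follows from those fold changes and is not a separate result.

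Single livers therefore decided how many subunits passed an unadjusted P of 0.05. Without LΔRbfox2 liver 2 the number higher was 32, with a smallest adjusted P of 0.083, and without LWT liver 2 it was 30. The count over all genes moved too: 2344 of 14005 and 1910 of 14136 were higher in these fits, against 1102 of 13856 with all livers. The number of members higher was 3 without LWT liver 1, 7 without LWT liver 3 and 3 without LWT liver 4. It was 9 without LΔRbfox2 liver 1, 4 without LΔRbfox2 liver 3 and 0 without LΔRbfox2 liver 4. In the same order, 423, 521, 379, 809, 396 and 282 of all genes were higher, where 14080 to 14307 were tested. No member was called in any of these 8 fits, and the median log2 fold change of the members stayed between 0.52 and 0.95. When library totals were used without TMM factors, the median over all genes moved to -0.23 and that of the members to 0.42, 37 members were above 0, and 3 were higher at an unadjusted P under 0.05. In that fit 203 of all 13856 genes were higher and 393 were lower.

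**Figure D2:**
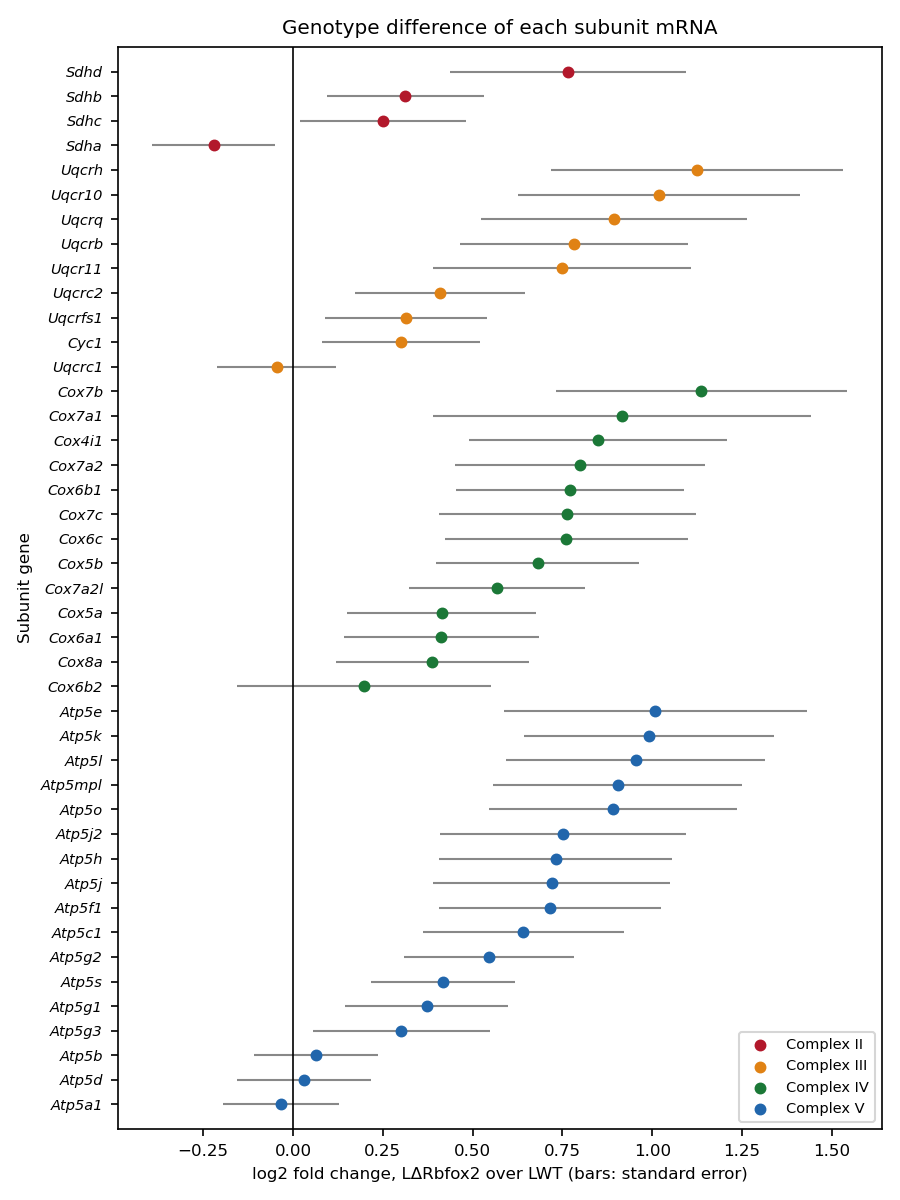
Log2 fold change (LΔRbfox2 over LWT) of each of the 43 subunit mRNAs, as points with bars of 1 standard error, ordered by complex. Values run from -0.22 for *Sdha* to 1.14 for *Cox7b*, and 3 of 43 lie at or below 0.

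In complex II the subunits divided. The membrane anchor *Sdhd* had a higher mean in LΔRbfox2 livers, *Sdhb* and *Sdhc* lay a little above LWT, and the catalytic flavoprotein *Sdha* lay below it, which gave a median log2 fold change of 0.28 that was 0.0058 with library totals and -0.04 with 1 surrogate variable, a hidden factor estimated from the counts and fitted beside genotype. At an unadjusted P under 0.05, 1 of 4 members was higher and 0 were lower. *Sdha*, which holds the FAD cofactor and the succinate site, was counted at 229, 214, 239 and 260 CPM in LWT livers 1 to 4 and at 232, 229, 169 and 179 CPM in LΔRbfox2 livers 1 to 4. LΔRbfox2 livers 3 and 4 were thus the lowest of the 8, the opposite of nearly all other subunits, and the genotypes overlapped. Its log2 fold change was -0.22 (SE 0.17), with a 95% interval of -0.61 to 0.15 by limma-voom.

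*Sdhb*, the iron-sulphur subunit, was at 81.8, 127, 107 and 87.7 CPM in LWT and at 114, 94.5, 167 and 126 CPM in LΔRbfox2 livers, a log2 fold change of 0.31 (SE 0.22) that was -0.01 with a correction for the length of the principal transcript, the main isoform of each gene. The anchor *Sdhc* gave 78.6, 140, 114 and 90.2 CPM in LWT and 116, 93.4, 152 and 141 CPM in LΔRbfox2 livers, a log2 fold change of 0.25 (SE 0.23) that was -0.02 when library totals were used without TMM factors and -0.09 with 1 surrogate variable. For both, LΔRbfox2 liver 2 lay within the LWT range. The other anchor, *Sdhd*, was at 125, 239, 167 and 109 CPM in LWT and at 280, 142, 305 and 362 CPM in LΔRbfox2 livers, a log2 fold change of 0.77 (SE 0.33, adjusted P = 0.504 by edgeR). That value was 0.47 with the principal transcript correction and 0.20 with 1 surrogate variable. LΔRbfox2 livers 1, 3 and 4 were above every LWT liver for *Sdhd*, and liver 2 was below LWT livers 2 and 3. The ratio of *Sdhd* to *Sdha* counts was 0.545, 1.12, 0.699 and 0.421 in LWT livers and 1.21, 0.620, 1.81 and 2.03 in LΔRbfox2 livers. Its mean was 0.696 ± 0.303 in LWT and 1.42 ± 0.634 in LΔRbfox2 (SD, n = 4), and the livers of the genotypes overlapped.

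**Figure D3:**
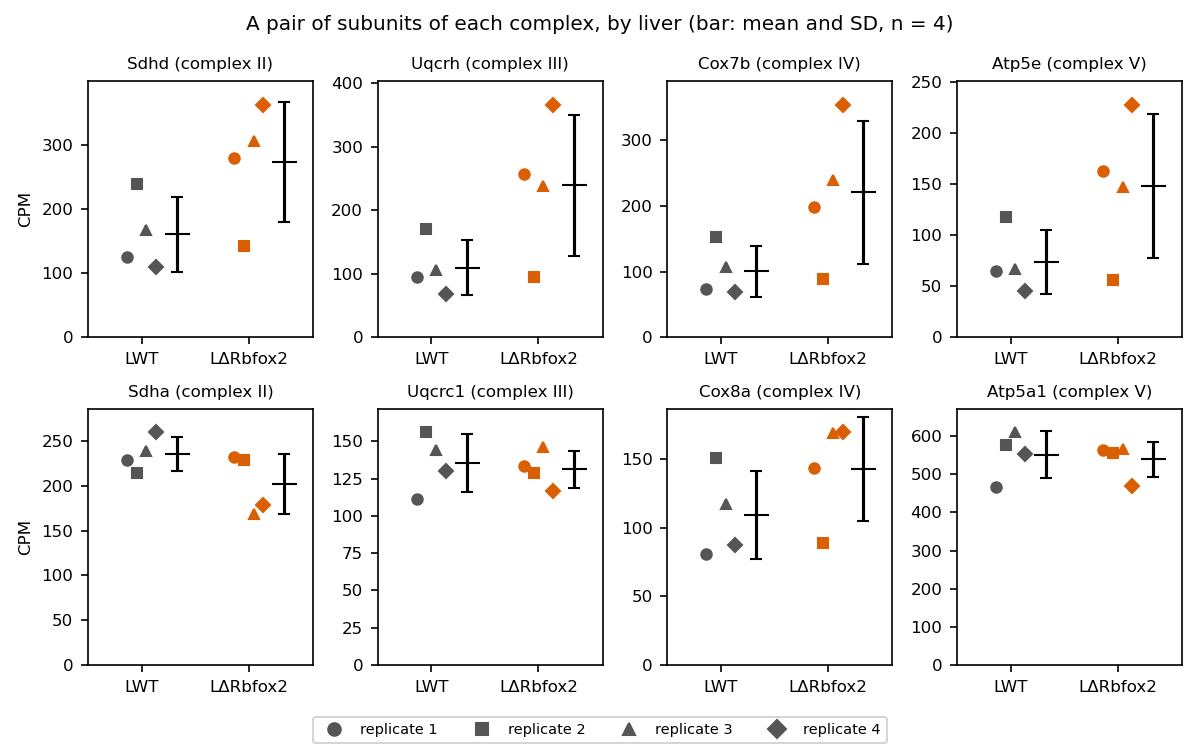
TMM-adjusted CPM in each liver (symbols give the replicate, the bar the mean and SD of 4 livers) of one subunit with a high fold change (upper row: *Sdhd*, *Uqcrh*, *Cox7b*, *Atp5e*) and one with a lower fold change (lower row: *Sdha*, *Uqcrc1*, *Cox8a*, *Atp5a1*) from each of complexes II to V. In the upper row LΔRbfox2 livers 1, 3 and 4 lie above all LWT livers and liver 2 among them, while in the lower row the genotypes overlap more broadly.

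In complex III the log2 fold changes were larger for the small accessory subunits than for the core proteins and electron carriers, a difference between members that was not tested. The median log2 fold change was 0.75 (0.28 with the gene length correction, 0.17 with the principal transcript correction and 0.11 with 1 surrogate variable), 8 of 9 members were above 0, and 4 were higher at an unadjusted P under 0.05. *Uqcrh*, the acidic hinge protein beside cytochrome c1, was at 94.4, 170, 106 and 68.4 CPM in LWT and at 257, 94.5, 238 and 366 CPM in LΔRbfox2 livers, a log2 fold change of 1.12 (SE 0.41, adjusted P = 0.504 by edgeR). *Uqcr10* was at 45.8, 94.9, 65.2 and 38.8 CPM in LWT and at 132, 52.9, 125 and 185 CPM in LΔRbfox2 livers, a log2 fold change of 1.02 (SE 0.39). With the principal transcript correction *Uqcrh* and *Uqcr10* were at 0.49 and 0.35, and with 1 surrogate variable at 0.40 and 0.31. In both, LΔRbfox2 liver 4 was the highest of the 8, and LΔRbfox2 liver 2 was closest to LWT liver 1. *Uqcrq* at 0.89, *Uqcrb* at 0.78 and *Uqcr11* at 0.75, other small subunits, followed in log2 fold change. Principal transcripts were short for *Uqcrh* (547 bases), *Uqcrb* (535), *Uqcr11* (445) and *Uqcr10* (434), though not for *Uqcrq* (1521). Those of the core proteins and electron carriers had 1363 (*Uqcrfs1*) to 1896 bases (*Uqcrc2*). The part of length in the difference between these subunits was not tested.

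Among the electron-carrying subunits of complex III, *Uqcrfs1*, the Rieske iron-sulphur protein, was at 103, 171, 137 and 107 CPM in LWT and at 166, 114, 184 and 180 CPM in LΔRbfox2 livers, a log2 fold change of 0.31 (SE 0.22). *Cyc1*, cytochrome c1, gave 87.1, 139, 111 and 88.2 CPM in LWT and 135, 93.6, 150 and 145 CPM in LΔRbfox2 livers, a log2 fold change of 0.30 (SE 0.22). With 1 surrogate variable both were at -0.02, and *Uqcrfs1* was at -0.05 with GC content and gene length corrections. Neither separated the genotypes, since LWT liver 2 was above LΔRbfox2 livers 1 and 2 for both. The core protein *Uqcrc2* had a log2 fold change of 0.41 (SE 0.24). Its partner *Uqcrc1* was at 111, 156, 144 and 130 CPM in LWT and at 133, 129, 146 and 117 CPM in LΔRbfox2 livers, with LWT liver 2 the highest and LWT liver 1 the lowest of the 8. The log2 fold change of *Uqcrc1* was -0.04 (SE 0.17), with a 95% interval of -0.41 to 0.33 by limma-voom. The ratio of *Uqcrh* to *Uqcrc1* counts was 0.800 ± 0.236 in LWT and 1.86 ± 0.993 in LΔRbfox2 livers (SD, n = 4) and overlapped, with LΔRbfox2 liver 2 at 0.735 and LΔRbfox2 liver 4 at 3.14.

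In complex IV all 13 members were above 0, with a median log2 fold change of 0.76, and 7 were higher at an unadjusted P under 0.05. That median was 0.20 with the principal transcript correction and 0.17 with 1 surrogate variable, and the correction put *Cox5a* (-0.11), *Cox6a1* (-0.15), *Cox8a* (-0.18) and *Cox6b2* (-0.31) below 0. *Cox7b*, a small membrane-spanning subunit, was at 73.0, 153, 107 and 68.2 CPM in LWT and at 198, 89.4, 240 and 354 CPM in LΔRbfox2 livers. LΔRbfox2 livers 1, 3 and 4 were the highest 3 of the 8. Its log2 fold change of 1.14 (SE 0.41, adjusted P = 0.504 by edgeR) was the largest of all members in the main fit, close to *Uqcrh* at 1.12. *Uqcrh* was above *Cox7b* with library totals (0.83 against 0.81) and with 1 surrogate variable (0.40 against 0.35). With the GC correction *Atp5k* (1.11) was above *Cox7b* (0.94). The principal transcript correction gave 0.71 for *Cox7b*. *Cox4i1*, the ubiquitous form of the subunit through which ATP acts on the enzyme, was at 208, 396, 267 and 185 CPM in LWT and at 480, 220, 497 and 707 CPM in LΔRbfox2 livers, a log2 fold change of 0.85 (SE 0.36). *Cox7c* gave 96.1, 180, 106 and 83.0 CPM in LWT and 199, 90.8, 213 and 289 CPM in LΔRbfox2 livers, a log2 fold change of 0.76 (SE 0.36). With the principal transcript correction *Cox4i1* and *Cox7c* were at 0.33 and 0.15, and with 1 surrogate variable at 0.20 and 0.12. Both followed the pattern of *Cox7b*, with LΔRbfox2 liver 4 the highest and LWT liver 4 the lowest.

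Smaller fold changes were found for *Cox5a*, *Cox6a1* and *Cox8a*. *Cox5a*, on the matrix side of the enzyme, was at 80.3, 144, 107 and 78.8 CPM in LWT and at 146, 86.2, 159 and 155 CPM in LΔRbfox2 livers, a log2 fold change of 0.41 (SE 0.26). The liver form *Cox6a1* was at 92.6, 165, 130 and 93.9 CPM in LWT and at 147, 101, 193 and 200 CPM in LΔRbfox2 livers, a log2 fold change of 0.41 (SE 0.27). The smallest subunit, *Cox8a*, gave 81.2, 151, 117 and 87.4 CPM in LWT and 144, 89.2, 170 and 170 CPM in LΔRbfox2 livers, a log2 fold change of 0.39 (SE 0.27). For *Cox6a1* and *Cox8a*, LWT liver 2 lay above LΔRbfox2 livers 1 and 2. The ratio of *Cox7b* to *Cox8a* counts was 0.899, 1.01, 0.914 and 0.780 in LWT and 1.38, 1.002, 1.42 and 2.09 in LΔRbfox2 livers, so that LΔRbfox2 livers 1, 3 and 4 were above every LWT liver and liver 2 was just below LWT liver 2. The log2 fold changes of *Cox6b1*, *Cox6c* and *Cox5b* were 0.77, 0.76 and 0.68.

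Several complex IV subunits exist as paralogues with a tissue-restricted form, and the livers contained almost only the widely expressed forms. *Cox7a2*, the liver form, was at 56.1, 111, 69.7 and 54.2 CPM in LWT and at 132, 60.0, 132 and 182 CPM in LΔRbfox2 livers, a log2 fold change of 0.80 (SE 0.35). Its heart and muscle form, *Cox7a1*, was at 0.523, 0.723, 0.499 and 0.345 CPM in LWT and at 1.07, 0.328, 0.669 and 1.95 CPM in LΔRbfox2 livers, a log2 fold change of 0.92 by edgeR and of 0.60 (SE 0.53, 95% interval -0.57 to 1.77) by limma-voom. Without LΔRbfox2 liver 4 the edgeR value was 0.39. The related *Cox7a2l*, which joins complexes III and IV in supercomplexes, gave 55.8, 87.3, 69.6 and 52.9 CPM in LWT and 97.5, 63.5, 111 and 122 CPM in LΔRbfox2 livers, a log2 fold change of 0.57 (SE 0.24). *Cox7a2* and *Cox7a2l* had the liver order of the other subunits, whereas for *Cox7a1* LΔRbfox2 liver 2 was the lowest of the 8. The testis form *Cox6b2* was at 0.888, 0.603, 0.645 and 0.299 CPM in LWT and at 0.914, 0.609, 0.582 and 0.681 CPM in LΔRbfox2 livers, a log2 fold change of 0.20 (SE 0.35). Per exon length in LWT livers, *Cox7a1* was at 1.73 ± 0.539 TPM (counts per base of exon, scaled to 1 standard total) against 138 ± 54.6 TPM for *Cox7a2*, and *Cox6b2* was at 0.955 ± 0.320 TPM against 279 ± 100.3 TPM for *Cox6b1* (SD, n = 4). Of the 5 genes left out for low counts, *Cox4i2* had 11, *Cox6a2* 10, *Cox8b* 9, and *Cox7b2* and *Cox8c* 0 counts over the 8 livers, while the members nearest above the limit of 80 were *Cox6b2* with 229 and *Cox7a1* with 249. These are restricted forms of lung, muscle, brown fat and testis, and each of the 6 muscle markers had at most 1 count in any liver. Of the 3 brown fat markers *Ucp1* was at 0 counts in every liver and *Cidea* had at most 16, whereas *Elovl3*, which liver also expresses, had 2038 to 8475 counts, and the list summed to 73.3 to 176 CPM in LWT and 46.6 to 128 CPM in LΔRbfox2 livers.

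**Figure D4:**
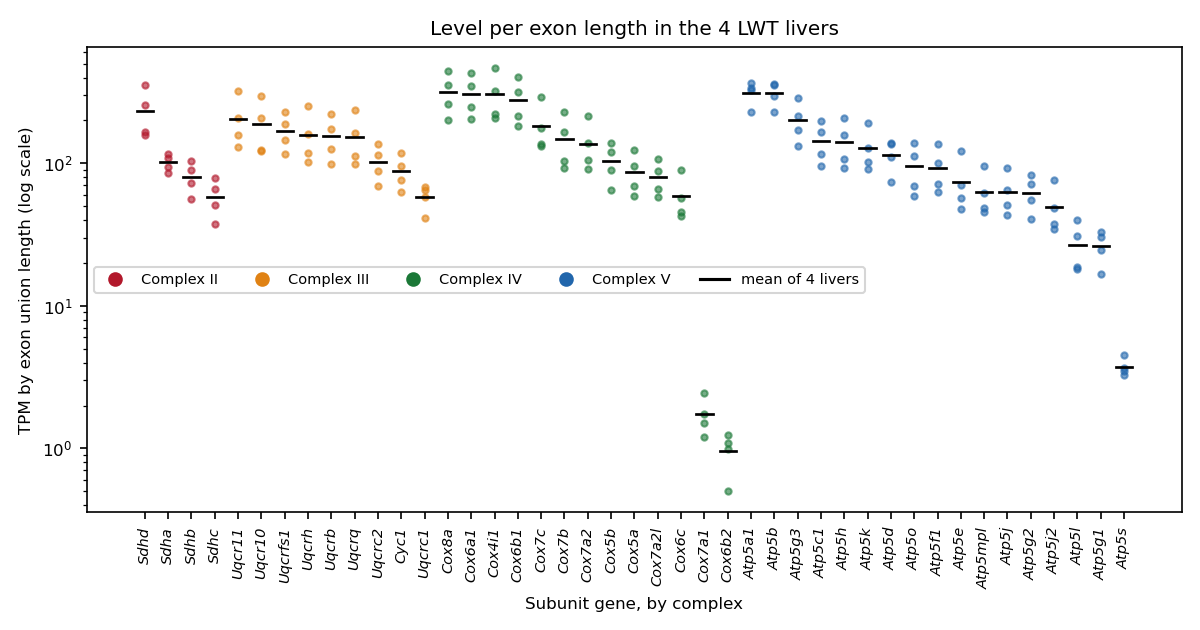
TPM by union exon length in the 4 LWT livers (log scale), points for livers and a line for their mean, by complex. Means of most subunits lie between 26.1 and 316 TPM, while those of *Atp5s*, *Cox7a1* and *Cox6b2* lie below 5 TPM.

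In complex V most subunits of the stalks and the membrane sector had larger log2 fold changes than the catalytic subunits, again without a test between members. The median log2 fold change was 0.72 (0.27 with the principal transcript correction and 0.16 with 1 surrogate variable), 16 of 17 members were above 0, and 11 were higher at an unadjusted P under 0.05. The catalytic subunit *Atp5b* was at 627, 828, 821 and 680 CPM in LWT and at 816, 674, 867 and 733 CPM in LΔRbfox2 livers, a log2 fold change of 0.06 (SE 0.17) that was -0.17 when library totals were used without TMM factors and -0.08 with 1 surrogate variable. *Atp5a1*, the alpha subunit that alternates with *Atp5b* in the catalytic head, was at 466, 577, 609 and 552 CPM in LWT and at 563, 556, 567 and 470 CPM in LΔRbfox2 livers. LΔRbfox2 liver 4, the highest for most members, was here the lowest of its genotype. The log2 fold change of *Atp5a1* was -0.03 (SE 0.16), with a 95% interval of -0.39 to 0.33 by limma-voom. Principal transcripts had 1916 bases for *Atp5b* and 2471 for *Atp5a1*. Those of the other complex V members had 371 (*Atp5k*) to 1604 bases (*Atp5f1*), apart from *Atp5g1* with 4715. The part of length in the difference between these subunits was not tested. *Atp5d*, the delta subunit of the central stalk, gave 92.5, 146, 140 and 115 CPM in LWT and 127, 111, 141 and 125 CPM in LΔRbfox2 livers, a log2 fold change of 0.03 (SE 0.19) that was -0.02 with upper-quartile factors and -0.21 with library totals.

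Other parts of the central stalk differed from *Atp5d* in size of fold change. *Atp5e*, the epsilon subunit, was at 64.9, 118, 66.4 and 45.1 CPM in LWT and at 162, 55.8, 147 and 227 CPM in LΔRbfox2 livers, a log2 fold change of 1.01 (SE 0.42), and the gamma subunit *Atp5c1* had 0.64 (SE 0.28). The value for *Atp5e* was 0.31 with the principal transcript correction and 0.27 with 1 surrogate variable. For *Atp5e*, LΔRbfox2 livers 1, 3 and 4 were above all LWT livers, and LΔRbfox2 liver 2 was above LWT liver 4 alone. The ratio of *Atp5e* to *Atp5a1* counts was 0.140, 0.204, 0.109 and 0.0817 in LWT and 0.288, 0.100, 0.259 and 0.484 in LΔRbfox2 livers. The ratio of *Atp5b* to *Atp5a1* counts, by contrast, stayed between 1.21 and 1.56 in all 8 livers.

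Of the membrane sector, *Atp5k*, the e subunit at the dimer interface, was at 36.2, 64.8, 42.3 and 34.1 CPM in LWT and at 80.6, 40.5, 101 and 131 CPM in LΔRbfox2 livers. Its log2 fold change was 0.99 (SE 0.35), and its unadjusted edgeR P of 0.0156 was the smallest of all members, with an adjusted P of 0.504. The log2 fold change of *Atp5k* was 0.27 with the principal transcript correction and 0.33 with 1 surrogate variable. The g subunit *Atp5l* had a log2 fold change of 0.95, the small proteolipid *Atp5mpl* 0.90 and the f subunit *Atp5j2* 0.75. On the peripheral stalk, *Atp5o*, the subunit that confers sensitivity to oligomycin, had a log2 fold change of 0.89, and *Atp5h*, *Atp5j* and *Atp5f1* had 0.73, 0.72 and 0.72. All 7 of these were higher at an unadjusted P under 0.05. The coupling factor B gene *Atp5s* was measured at only 4.30 ± 0.554 CPM in LWT and 5.75 ± 1.09 CPM in LΔRbfox2 livers (SD, n = 4), a log2 fold change of 0.42.

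The c ring of ATP synthase is built from one mature protein encoded by 3 genes. *Atp5g3* was at 188, 344, 249 and 202 CPM in LWT and at 307, 206, 349 and 348 CPM in LΔRbfox2 livers, a log2 fold change of 0.30 (SE 0.25) that was -0.18 with the principal transcript correction and -0.07 with 1 surrogate variable. *Atp5g2* gave 43.9, 75.7, 63.5 and 50.0 CPM in LWT and 85.2, 57.7, 98.5 and 98.8 CPM in LΔRbfox2 livers, a log2 fold change of 0.55 (SE 0.24). *Atp5g1* was at 53.2, 88.5, 79.3 and 65.4 CPM in LWT and at 99.8, 63.3, 103 and 105 CPM in LΔRbfox2 livers, a log2 fold change of 0.37 (SE 0.23). In all 3, LΔRbfox2 liver 2 was the lowest of its genotype and lay inside the LWT range. Per exon length, *Atp5g3* was the most abundant at 202 ± 66.1 TPM in LWT livers, followed by *Atp5g2* at 62.3 ± 18.3 TPM and *Atp5g1* at 26.1 ± 7.13 TPM (SD, n = 4). *Atp5g2* has processed pseudogenes whose counts together came to 27.1% of its own, chiefly *Gm10175*, which matches it at 100% identity over 645 bases and had 5814 counts. How the counting divided reads between *Atp5g2* and these copies is not given in the sources used here, so its level is uncertain.

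Most of the subunits have short transcripts, a feature that the choice of genes did not use. The principal transcript (the main isoform marked in the annotation) had a median length of 809 bases for the 43 members and 2990 bases for 12097 other protein-coding genes tested. Lengths of members ran from 371 to 4715 bases, and *Sdhc* (3171) and *Atp5g1* (4715) were above the median of the other genes. Shorter genes had higher fold changes in these livers in general: across genes, Spearman's rho between length and log2 fold change was -0.63 over the members and -0.46 over the others, where genes are not independent replicates. Among genes of at most 750 bases, 20 members had a median log2 fold change of 0.77 and 289 other genes 0.68, and 60% of these members and 44.3% of these other genes were higher at an unadjusted P under 0.05. Above 750 and up to 1000 bases, 5 members had a median of 0.75 and 415 other genes 0.53, with 5 members and 30.4% of the others higher. Above 1000 and up to 2000 bases, 14 members had 0.41 and 2573 other genes 0.20, with 6 members and 11.9% of the others higher. Above 2000 and up to 4000 bases, the medians were -0.03 for 3 members, which include *Sdha* and *Atp5a1*, and -0.04 for 4971 other genes. Above 4000 bases the single member, *Atp5g1*, had 0.37 and 3849 other genes had a median of -0.19.

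With fold changes corrected for exon length in the fit, the members' median was 0.32 and 12 were higher at an unadjusted P under 0.05. With a correction for the length of the principal transcript, chosen after the data were seen, the median was 0.22 and 4 were higher. Of all 13856 genes, 793 were higher at that P with the first correction and 720 with the second. Within single livers the trend also varied: the Spearman correlation across genes between length and the deviation of a liver from the mean was 0.44, -0.35, 0.20 and 0.44 in LWT livers 1 to 4 and -0.20, 0.42, -0.51 and -0.42 in LΔRbfox2 livers 1 to 4. The livers with negative values, LWT 2 and LΔRbfox2 1, 3 and 4, were those with the highest TMM-adjusted subunit sums, although by share of all counts LWT liver 3 (0.664%) was above LΔRbfox2 liver 3 (0.650%). The part of this length trend in the genotype difference of the subunits was not tested beyond these corrections, and the genotype and the trend cannot be fully told apart with 4 livers a group.

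**Figure D5:**
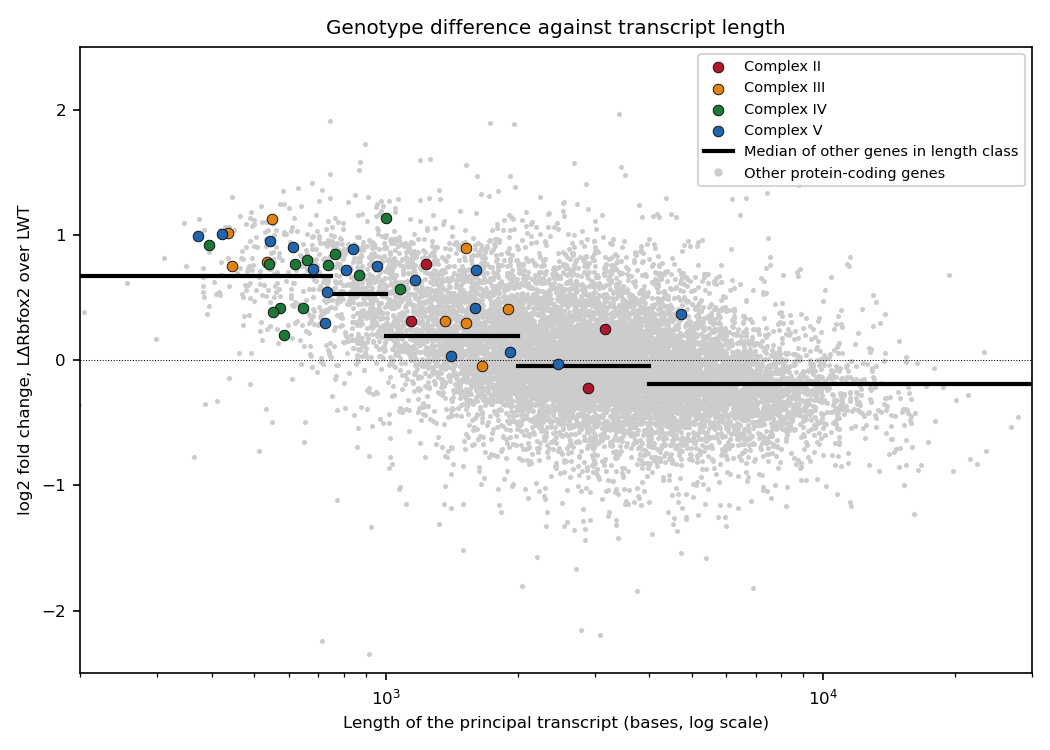
Log2 fold change (LΔRbfox2 over LWT) against principal transcript length (log scale) for 12089 other protein-coding genes (grey; 8 lie outside the axes) and the 43 subunits (coloured by complex), with black lines for the median of other genes in 5 length classes. The lines step down from 0.68 at up to 750 bases to -0.19 above 4000 bases, and most subunits lie at the short end.

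Some other measures moved with the subunits across the livers, and others did not. Red cell markers summed to 544, 729, 560 and 382 CPM in LWT and to 869, 627, 1350 and 1526 CPM in LΔRbfox2 livers. At an unadjusted P under 0.05, 4 of 5 of them were higher, where 7.95% of all genes tested were higher. *Alas2*, the only marker of this list that is not a globin, was at 42.1, 47.7, 44.4 and 44.0 CPM in LWT livers. In LΔRbfox2 livers it was at 59.0, 37.8, 62.9 and 46.0 CPM, so that LΔRbfox2 liver 4 lay below LWT liver 2. Hepatocyte markers summed to 42340, 55976, 62181 and 43518 CPM in LWT and to 67588, 47337, 63366 and 64864 CPM in LΔRbfox2 livers, so that LWT livers 1 and 4 and LΔRbfox2 liver 2 were the lowest here too. Most of that sum is *Alb*, and single markers differed: *Cps1* was at 3054, 1365, 2245 and 3370 CPM in LWT and at 2422, 3795, 1903 and 1885 CPM in LΔRbfox2 livers, where those 3 livers were the highest, and *Hnf4a* was highest of its genotype in LΔRbfox2 liver 2, at 520 CPM. Cholangiocyte markers summed to 14.6, 25.8, 19.2 and 18.8 CPM in LWT and to 21.3, 16.4, 60.9 and 31.3 CPM in LΔRbfox2 livers, and stellate cell and fibroblast markers to 70.6, 125, 89.5 and 65.0 CPM and to 110, 83.7, 92.1 and 126 CPM. In both sums LWT liver 2 was the highest and LΔRbfox2 liver 2 the lowest of its genotype, as for the subunits, but *Spp1* and *Dcn* make up most of them, and *Sox9* (1.33 CPM in LWT liver 2 and 3.71 CPM in LΔRbfox2 liver 2) and *Col1a1* (3.17 CPM in LΔRbfox2 liver 2, the highest of the 8) ran otherwise. Kupffer cell markers summed to 66.0, 57.5, 97.3 and 55.5 CPM in LWT and to 65.9, 31.1, 57.7 and 53.8 CPM in LΔRbfox2 livers, with 1 of 6 lower at an unadjusted P under 0.05, and sinusoidal endothelial markers to 72.8, 65.3, 61.6 and 56.6 CPM and to 62.7, 63.1, 48.0 and 47.3 CPM, lowest in LΔRbfox2 livers 3 and 4. No marker of the hepatocyte, cholangiocyte and stellate cell lists was at an unadjusted P under 0.05. Within LWT, the livers with the least *Rbfox2* mRNA (2 and 3, at 10.4 and 11.4 CPM) had the highest subunit sums and shares of counts. Within LΔRbfox2, liver 2 had the most *Rbfox2* (6.09 CPM) and the lowest subunit sum and share. Livers 3 and 4 had the least *Rbfox2* and the highest TMM-adjusted sums, but by share of all counts liver 1 was the highest (0.896%) and liver 3 (0.650%) was close to liver 2 (0.582%). The part of these cell types, of *Rbfox2* level and of the major urinary protein share in the result was not tested. With 1 surrogate variable fitted beside genotype, the members' median was 0.16, 32 of 43 were above 0, and 0 were higher at an unadjusted P under 0.05, with a smallest adjusted P of 0.956. Of all 13856 genes, 395 were higher at an unadjusted P under 0.05 in that fit.

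Beyond these 43 genes, the list of nuclear complex I subunits was read for comparison. Of 37 tested, 35 were above 0 and 18 were higher and 0 lower at an unadjusted P under 0.05, with a median log2 fold change of 0.62, which was 0.29 with the exon length correction and 0.12 with 1 surrogate variable. Values ran from -0.12 for *Ndufv1* and -0.03 for *Ndufs1*, which carry the entry path for electrons from NADH, to 1.27 for *Ndufb4*. The list follows gene names and so holds *Ndufa4*, at 1.07, which is now placed in complex IV, and its paralogue *Ndufa4l2*, at 0.14. The 13 subunits encoded in mitochondrial DNA, of which those named mt-Nd belong to complex I, were all above 0 with a median of 0.28, and 3 were higher at an unadjusted P under 0.05. Their median was -0.12 with the exon length correction and 0.33 with 1 surrogate variable. Those that join the members in their complexes were *mt-Cytb* of complex III at 0.28, *mt-Co1*, *mt-Co2* and *mt-Co3* of complex IV at 0.37, 0.29 and 0.63, and *mt-Atp6* and *mt-Atp8* of complex V at 0.35 and 0.39. Assembly factors of complexes II to V had a median of 0.35 (29 of 35 above 0, 12 higher and 0 lower at an unadjusted P under 0.05), or 0.23 with the exon length correction and 0.16 with 1 surrogate variable, with *Pet100*, a complex IV factor, at 1.11, *Uqcc2*, a complex III factor, at 1.09 and *Cox15*, which makes haem a, at -0.19.

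Tricarboxylic acid cycle enzymes, to which complex II belongs by function, had a median of 0.08, close to that of all genes, with 10 of 14 above 0 and only *Fh1*, fumarase, higher at an unadjusted P under 0.05 (log2 fold change 0.50). The mRNA of citrate synthase (*Cs*) was at -0.07 (SE 0.16), and mitochondrial content was not measured. Of 13 regulators of respiratory genes, 6 were above 0 and the median was -0.05, or 0.10 with the exon length correction and 0.12 with 1 surrogate variable. They ranged from the coactivator *Ppargc1b* at -0.60 and *Pprc1* at -0.37 through *Ppargc1a* (-0.15), *Nrf1* (-0.09), *Gabpa* (-0.05), *Esrra* (0.22), *Tfam* (0.32) and *Gabpb1* (0.37) to *Tfb2m* at 0.43, and the mitochondrial ribosomal RNA methyltransferase *Tfb1m*, at 0.58, was the one at an unadjusted P under 0.05. No gene of these 5 lists was called by the edgeR test. Principal transcripts had a median of 2473.5 bases in the tricarboxylic acid cycle list and 3755 bases in the regulator list. The median was 908 bases for complex I and 809 bases for the 43 members. Other genes above 2000 and up to 4000 bases had a median log2 fold change of -0.04. The part of length in the differences between these lists was not tested.

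The start regions of the subunit genes were searched for motifs of the regulators named above, in RefSeq windows (GRCm38.p6) from 250 bases before to 50 bases after the annotated start, of which 35 windows matched 32 members. Letters were matched exactly on both strands. The NRF1 letters GCGCATGCG were found in 17.1% of member windows and in 1.75% of all 32851 windows, and the ETS letters CCGGAAG in 34.3% and 8.86%. The YY1 letters AAGATGGCG were in 5.71% and 1.40%, and the ERRα letters TCAAGGTCA in 5.71% and 0.423%. No matches of different motifs overlapped, while the NRF1 letters read almost the same on both strands and matches on the strands coincide. Members with the ETS letters had a median log2 fold change of 0.76 and those without 0.56, and members with the NRF1 letters had 0.65 and those without 0.70. A match is a description of the sequence and does not show binding.

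The 6 members with the NRF1 letters are shown because they range from *Uqcrc1*, near 0 in log2 fold change, to *Atp5k*, at 0.99. Each line gives 28 bases on the strand of the gene, 5′ to 3′, with the match in capitals.
Uqcrc1 chr9:108936669-108936696 (+), bases 31 to 40 after the start: ctccgctctGCGCATGCGCagcgcggct
Uqcr11 chr10:80406808-80406835 (-), bases -5 to 4: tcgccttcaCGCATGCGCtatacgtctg
Cox6a1 chr5:115349102-115349129 (-), bases -162 to -153: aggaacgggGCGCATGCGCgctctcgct
Atp5g2 chr15:102671071-102671098 (-), bases -42 to -33: gctccggccGCGCATGCGCagagccttc
Atp5k chr5:108434431-108434458 (-), bases -50 to -41: ttcactgcgGCGCATGCGCctttctggc
Atp5l chr9:44920965-44920992 (-), bases -241 to -233: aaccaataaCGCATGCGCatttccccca

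The ETS letters were found in members of each complex, and a site before or across the start is shown for one member of each, again with the match in capitals, where CTTCCGG is the same site read on the other strand.
Sdhd chr9:50603878-50603905 (-), bases -46 to -40: cgtctcctgcCTTCCGGttcacgcttca
Uqcrh chr4:116075063-116075090 (-), bases -10 to -4: gtatgccgcaCTTCCGGccaggtcgccg
Cox8a chr19:7217604-7217631 (-), bases -5 to 2: ttccgaaataCTTCCGGctcgggcgtcc
Atp5e chr2:174464186-174464213 (-), bases -102 to -96: acggccacagCTTCCGGtagccgctcgg
*Sdhd* also had the ERRα letters, at bases 37 to 45 after its start, as did *Atp5g3* at -52 to -44. The YY1 letters were found in *Atp5j* at -88 to -80 and in *Atp5j2* at 24 to 32. Windows of *Sdha*, *Cox7b* and *Uqcr10* held none of the 4 motifs.

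Per exon length, the most abundant subunit mRNAs in LWT livers were *Cox8a* at 316 ± 106 TPM, *Atp5a1* at 314 ± 58.6 TPM, *Atp5b* at 311 ± 62.6 TPM, *Cox6a1* at 307 ± 101 TPM and *Cox4i1* at 304 ± 119 TPM (SD, n = 4), which differed from each other by less than the spread between livers. Within complex II the order was *Sdhd* at 233 ± 92.2, *Sdha* at 101 ± 13.8, *Sdhb* at 80.6 ± 20.4 and *Sdhc* at 58.2 ± 17.8 TPM, where neighbours among the last 3 differed by about the spread between livers. In complex III the levels ran from *Uqcr11* at 205 ± 83.6 TPM to *Uqcrc1* at 58.5 ± 12.1 TPM. Both the levels and their order depend on the length used. By the principal transcript the highest were *Atp5b* at 558, *Cox4i1* at 499 and *Atp5g3* at 492 TPM, with *Cox8a* at 288 TPM. By that length *Sdhb* (128 TPM) was above *Sdha* (117 TPM), and complex III ran from *Uqcrh* at 289 TPM to *Cyc1* at 101 TPM, with *Uqcrc1* at 119 TPM.

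Some values carry a limit from neighbouring or copied sequence. Processed pseudogenes or copies of at least 95% identity over 100 bases were annotated for 14 members, and their counts exceeded 1% of the member's for 6, of which *Atp5g2* was the highest and *Atp5l* (5.54%) and *Atp5g1* (3.64%) were next. For 12 members an exon overlaps one of another gene, on the opposite strand for 11, among them *Cox4i1* with *Emc8* and *Atp5j* with *Gabpa*. Whether the counting used strand is not given in the sources used here.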

How the data were processed

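RNA-seq of 8 livers was used. Per the labels and the study's methods, the authors made poly(A) libraries with 1 kit, sequenced 100 basepair paired-end reads, demultiplexed them with CASAVA, aligned them to GRCm38 with TopHat2 2.0.11 as stranded reads and counted reads per gene with featureCounts. The deposited values are raw counts per gene for 46078 Ensembl identifiers, without normalization. The featureCounts settings are not given in the sources used here. Every column was matched to its liver by name (0 unmatched). GENCODE M21 (GRCm38) gave names, lengths and positions for 45229 identifiers.

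Counts were fitted in R 4.3.3 with edgeR 4.0.16: filterByExpr defaults (minimum count 10, total 15), TMM factors, glmQLFit and glmQLFTest with genotype as the term, and Benjamini-Hochberg adjustment over 13856 genes, called at 0.05. Standard errors and 95% intervals come from limma-voom (limma 3.58.1), and DESeq2 1.42.0 and sva 3.50.0 served as alternatives. CPM and TPM were computed here from the counts, TPM by the union of exons of each gene. Members, gene lists and motifs were chosen with earlier results of these data known. Values in every liver are given for all of complex II, for the highest and lowest 2 in fold change of complexes III to V, and for subunits fixed by role or paralogy. The fit was tested on simulated counts. No 2 libraries were copies of each other. Copies were found with BLAST 2.17.0. Tests used 4 livers per genotype, alternatives were other scalings, filters and tests, corrections for length and GC, a replicate block and leaving out each liver. Matching genes under 80 counts in sum were left out.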

Additional observations from a re-analysis of the deposited data

Results flagged for a closer look

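Among 98 groups of 4 livers examined (the 43 members and other values in each genotype), 2 held a liver whose gap to its nearest neighbour was large for the range of the group by Dixon's test, where chance alone would give about 1 in 20 groups, or 4.9. For *Atp5g1*, LΔRbfox2 liver 2 had 63.3 CPM, while its 3 companions had 99.8 to 105 CPM. For *Atp5a1*, LΔRbfox2 liver 4 had 470 CPM, while the remaining 3 of that genotype had 556 to 567 CPM. The first lies in the direction in which that liver differed for most subunits, and the second runs against the direction of that liver.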

How the results depend on the processing

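The median log2 fold change of all 43 members stayed above 0 in every alternative run. It lay between 0.62 and 0.72 with other scalings, filters and tests and a GC correction, apart from library totals without TMM factors (0.42), and was 0.32 with a gene length correction, 0.35 with GC content and gene length corrections, 0.22 with a principal transcript length correction and 0.16 with 1 surrogate variable. The last 2 settings gave 0.17 and 0.11 for complex III, 0.20 and 0.17 for complex IV, and 0.27 and 0.16 for complex V. For complex II the median was -0.037 with 1 surrogate variable and 0.0058 with library totals. Complex III was at 0.28 with a gene length correction, at 0.28 with GC content and gene length corrections together (also within a replicate block, 0.28), and complex IV at 0.24 with both corrections (0.24 within the block). Members at an unadjusted P under 0.05 numbered 23, against 13 with upper-quartile factors, 12 after correction for gene length, 14 after both corrections, 4 with the principal transcript correction, 3 with library totals, 0 with 1 surrogate variable, and 0 to 32 when single livers were left out. Over all 13856 genes, the number higher at that P was 1102, against 829, 793, 688, 720, 203 and 395 in the same order of settings. Leaving out single livers gave 282 to 2344 genes higher. Genes called numbered 0 in all settings except DESeq2 (10), and members called 0 in all.

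Correlations of the deviations of same-numbered livers were 0.13, -0.61, 0.12 and -0.51. The labels do not say whether livers with the same replicate number were paired, and these few correlations cannot show it. With a replicate block the members' median was 0.69 and 0 were at an unadjusted P under 0.05 (0 with both corrections as well), with a smallest adjusted P of 0.831. Of all 13856 genes, 229 were higher at an unadjusted P under 0.05 with the block, and 180 with both corrections as well.

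The direction of several members turned with the setting, among them some with log2 fold changes of 0.30 to 0.41 (*Cox5a*, *Cox6a1*, *Cox8a*, *Sdhb*, *Uqcrfs1*, *Cyc1*, *Atp5g3*), and the cause was not tested. With 1 surrogate variable *Sdhc* was at -0.086, *Uqcrfs1* -0.017, *Cyc1* -0.020, *Cox6a1* -0.046, *Cox8a* -0.053, *Atp5b* -0.081, *Atp5g3* -0.075 and *Atp5d* -0.16. With the principal transcript correction *Sdhb* was at -0.0082, *Cox5a* -0.11, *Cox6a1* -0.15, *Cox8a* -0.18, *Atp5b* -0.038, *Atp5g3* -0.18, *Cox6b2* -0.31 and *Atp5d* -0.19. With the gene length correction *Cox6a1* was at -0.078, *Cox8a* -0.12, *Cox6b2* -0.15 and *Atp5d* -0.18. With GC content and gene length corrections *Uqcrfs1* was at -0.051, *Uqcrc1* 0.025, *Cox6b2* -0.089 and *Atp5d* -0.036, and within a replicate block -0.049, 0.033, -0.031 and -0.025. With library totals *Sdhc* was at -0.025, *Atp5b* -0.17 and *Atp5d* -0.21, *Atp5d* was at -0.017 with upper-quartile factors and -0.0067 without a filter, and *Atp5a1* was at 0.032 with the GC correction. Leaving out single livers gave -0.13 to 0.031 for *Atp5a1*, -0.033 to 0.13 for *Atp5b*, -0.11 to 0.13 for *Atp5d*, -0.027 to 0.40 for *Cox6b2* and -0.15 to 0.037 for *Uqcrc1*. *Rbfox2* stayed below 0 in every setting, from -2.09 to -1.37, and passed the threshold with DESeq2 (-1.82). The library totals and principal transcript settings were chosen after seeing the data.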
